A study of Homo sapiens with 15 samples.

Results

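ZIC1, ZIC4, ZIC2 and ZIC5, members of the ZIC family of zinc finger transcription factors, were followed in HSSYII cells, an established synovial sarcoma line that carries the SS18-SSX1 fusion. The 4 genes were picked out by their symbols among 25681 gene symbols in the count tables. For a symbol with several transcript rows, the row with the largest sum of counts in the 15 RNA-seq libraries was used. All 4 genes passed the filter on low counts in every comparison.

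ZIC proteins bind DNA through a run of C2H2 zinc fingers related to those of the GLI factors, which act at the end of Hedgehog signalling. In vertebrate embryos they act in the neural plate, at its border, in the neural crest and in the cerebellum. Several family members lie in pairs that are transcribed away from each other, and ZIC1 with ZIC4 and ZIC2 with ZIC5 are such pairs. In synovial sarcoma the SS18-SSX fusion protein is a subunit of the SWI/SNF chromatin remodelling complex, and BRD9, a bromodomain protein, is another subunit of a form of that complex.

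HSSYII cells of fewer than 12 passages were given 100 nM dBRD9A, which marks BRD9 protein for destruction by the proteasome, or 0.0001% DMSO, its vehicle, and both groups were harvested after 6 h. In a separate experiment cells were infected with a GFP-tagged lentivirus that expressed hairpin shSS18-SSX1-1, hairpin shSS18-SSX1-2 or shRenilla, a hairpin against a luciferase that human cells lack, at an MOI (viral particles per cell) of 1.0. These cells were harvested at 96 h with no drug selection, so not every cell need carry a hairpin. Each of the 5 groups had 3 libraries from this 1 line, and no source used here says whether they came from separate cultures, so p-values measure the spread between libraries, which may be technical.

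Libraries held 18580419 to 27031647 counts (median 22382782), and levels are given as CPM, counts scaled to a common library size (TMM scaling over all 15 libraries). SSX1 counts, which include the fusion, fell by 1.42 on the log2 scale in the mean of both hairpins against shRenilla, and SS18, which both the fusion and the intact gene add to, fell by 0.56 (edgeR, adjusted p = 5.73e-08 and 4.71e-06). In single libraries SSX1 was at 18.7 to 20.9 CPM with shSS18-SSX1-1 and 27.8 to 29.2 CPM with shSS18-SSX1-2, against 55.1 to 77.0 CPM with shRenilla. The library shRenilla replicate 1 stood apart from the other shRenilla libraries. A chi-square per degree of freedom over genes, which is 1 for pure counting error, was 34.6 and 25.6 between it and them. It was at most 9.32 between any other replicates of a group. For the ZIC genes, the mean hairpin effect, the difference of effects and the comparison of controls are therefore also given without this library. Most other results that use shRenilla, among them the single hairpins, the gene lists and the markers, are given only with it. All levels are relative to the library total, and in bulk RNA fewer cells of a type and less RNA per cell cannot be told apart.

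On GRCh37, the build named for the count tables, ZIC1 lies on chromosome 3 from 147111209 to 147228080 on the plus strand, and ZIC4 lies on the minus strand from 147103833 to 147124596. The start sites of their main transcripts (MANE Select) are 2822 bases apart. ZIC2 lies on chromosome 13 from 100634038 to 100639019 on the plus strand and ZIC5 from 100615218 to 100624021 on the minus strand, with starts 10017 bases apart. All 4 are protein-coding genes. The spans of ZIC1 and ZIC4, over all their annotated transcripts, overlap on opposite strands. Their main transcripts do not, with ZIC1 from 147127152 to 147134506 and ZIC4 from 147103833 to 147124330. ZIC1 was counted as 1 transcript row. The strand setting of the counting is not given in the sources used here. Reads from an overlap between other transcripts, if any were counted, could not be told apart.

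The 250 bases before the outermost RefSeq start of each gene are shown so that the pairs can be compared at the sequence level. The 4 genes split by pair with the hairpins, though not with dBRD9A. They are RefSeq sequences of GRCh38.p14, 5′ to 3′ on the strand of the gene. Capitals mark each CCAAT and each GGGCGG, the core of a GC box, on either strand, so that their reverse complements are in capitals too. Matches that overlap run together.
ZIC1, chr3:147409115-147409364, plus strand: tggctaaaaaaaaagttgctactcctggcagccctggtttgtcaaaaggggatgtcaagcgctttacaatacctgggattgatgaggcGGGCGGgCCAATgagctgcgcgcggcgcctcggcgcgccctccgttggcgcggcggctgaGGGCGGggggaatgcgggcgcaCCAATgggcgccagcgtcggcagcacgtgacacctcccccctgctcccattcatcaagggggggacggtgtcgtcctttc
ZIC4, chr3:147406544-147406793, minus strand: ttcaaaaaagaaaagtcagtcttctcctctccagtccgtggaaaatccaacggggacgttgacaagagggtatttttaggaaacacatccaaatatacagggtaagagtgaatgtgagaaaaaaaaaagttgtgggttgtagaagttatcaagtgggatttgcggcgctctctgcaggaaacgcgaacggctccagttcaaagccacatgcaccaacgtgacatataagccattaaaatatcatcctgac
ZIC2, chr13:99981534-99981783, plus strand: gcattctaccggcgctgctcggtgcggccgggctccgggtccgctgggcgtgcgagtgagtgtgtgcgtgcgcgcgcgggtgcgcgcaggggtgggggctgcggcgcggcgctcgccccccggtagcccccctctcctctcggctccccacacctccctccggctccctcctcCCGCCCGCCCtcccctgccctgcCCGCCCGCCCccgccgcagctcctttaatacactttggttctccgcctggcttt
ZIC5, chr13:99971910-99972159, minus strand: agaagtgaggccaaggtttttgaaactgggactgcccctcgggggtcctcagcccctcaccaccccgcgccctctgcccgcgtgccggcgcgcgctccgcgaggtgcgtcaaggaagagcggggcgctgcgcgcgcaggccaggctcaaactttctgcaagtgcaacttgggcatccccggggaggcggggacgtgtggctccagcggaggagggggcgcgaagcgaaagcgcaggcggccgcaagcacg

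The partners of each pair differed in these motif matches, while ZIC2 and ZIC5 were alike in base content. ZIC1 held 2 CCAAT and 2 GGGCGG matches at 64.4% G and C, and ZIC4 held none of either at 42.8%. ZIC2 held 4 GGGCGG matches, some of which overlap, and no CCAAT at 75.6% G and C, and ZIC5 held neither at 70.4%. Among 35116 RefSeq promoter windows of the same length, 32.0% held a CCAAT and 42.6% a GGGCGG, and the median share of G and C was 58.0%. CG dinucleotides (a C followed by a G), the sites of DNA methylation, numbered 23 in ZIC1, 9 in ZIC4, 31 in ZIC2 and 28 in ZIC5. The median was 11 over all windows. TATAAA, the TATA box, was in none of the 4 windows and in 10.7% of all windows. CACGTG, an E box, occurred 1 time in the ZIC1 window, in none of the other 3, and in 6.34% of all windows. A match or its absence describes these letters only. The promoter set lists 4 starts for ZIC4 and 3 for ZIC5, against 1 each for ZIC1 and ZIC2. Windows at the inner starts were not examined.

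After 6 h of dBRD9A all 4 ZIC genes were lower than with DMSO, by less than 1.5-fold each. ZIC4 changed most and ZIC5 least. At this threshold, an adjusted p under 0.05 at any fold, 18.2% of 13652 tested genes were called lower and 17.7% higher, and 0.593% were called lower by more than 1.5-fold. The median log2 fold change of all genes was 0.01. Whether the libraries of a gene overlapped between groups is given below as a description. The share of all genes without overlap was not counted in any comparison, so a lack of overlap does not set a gene apart.

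ZIC1, a factor of the dorsal neural tube and cerebellum, was at 276, 278 and 270 CPM with dBRD9A, against 332, 326 and 329 CPM with DMSO. Every dBRD9A library was below every DMSO library. The log2 fold change was -0.25 (standard error 0.0287, 95% interval -0.31 to -0.19, edgeR adjusted p = 3.38e-08), and 8.66% of tested genes had a lower one.

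ZIC4, its partner on chromosome 3, which acts with ZIC1 in cerebellar development, was at 49.4, 51.1 and 49.5 CPM with dBRD9A, against 68.6, 66.7 and 62.9 CPM with DMSO. The groups did not overlap, and the gap between them was wider than the range of either. The log2 fold change was -0.40 (standard error 0.0437, 95% interval -0.49 to -0.31, edgeR adjusted p = 1.97e-08), and 3.11% of tested genes had a lower one. ZIC4 has 7 transcript rows that count many of the same reads, and their log2 ratios of dBRD9A to DMSO ran from -0.41 to -0.40. Every row thus gave about the same value.

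ZIC2, a factor whose loss in humans causes the forebrain defect holoprosencephaly, was at 66.5, 70.3 and 67.5 CPM with dBRD9A, against 78.5, 83.5 and 80.4 CPM with DMSO. The 3 dBRD9A libraries were again below all DMSO libraries. Its log2 fold change was -0.24 (standard error 0.0409, 95% interval -0.32 to -0.16, edgeR adjusted p = 2.5e-05).

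ZIC5, its partner on chromosome 13, which takes part in neural crest development in mouse and frog, was at 29.0, 29.3 and 30.5 CPM with dBRD9A, against 31.6, 33.7 and 35.0 CPM with DMSO. The groups did not overlap, but the highest dBRD9A library and the lowest DMSO library lay close together. Its log2 fold change was -0.17 (standard error 0.0540, 95% interval -0.28 to -0.06, edgeR adjusted p = 0.0163). Leaving out DMSO replicate 3 ended this call (-0.14, adjusted p = 0.0804), as did leaving out dBRD9A replicate 1 (-0.15, 0.0724) or dBRD9A replicate 2 (-0.16, 0.0589), and in a fit of all 15 libraries (-0.17, 0.199).

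**Figure D1:**
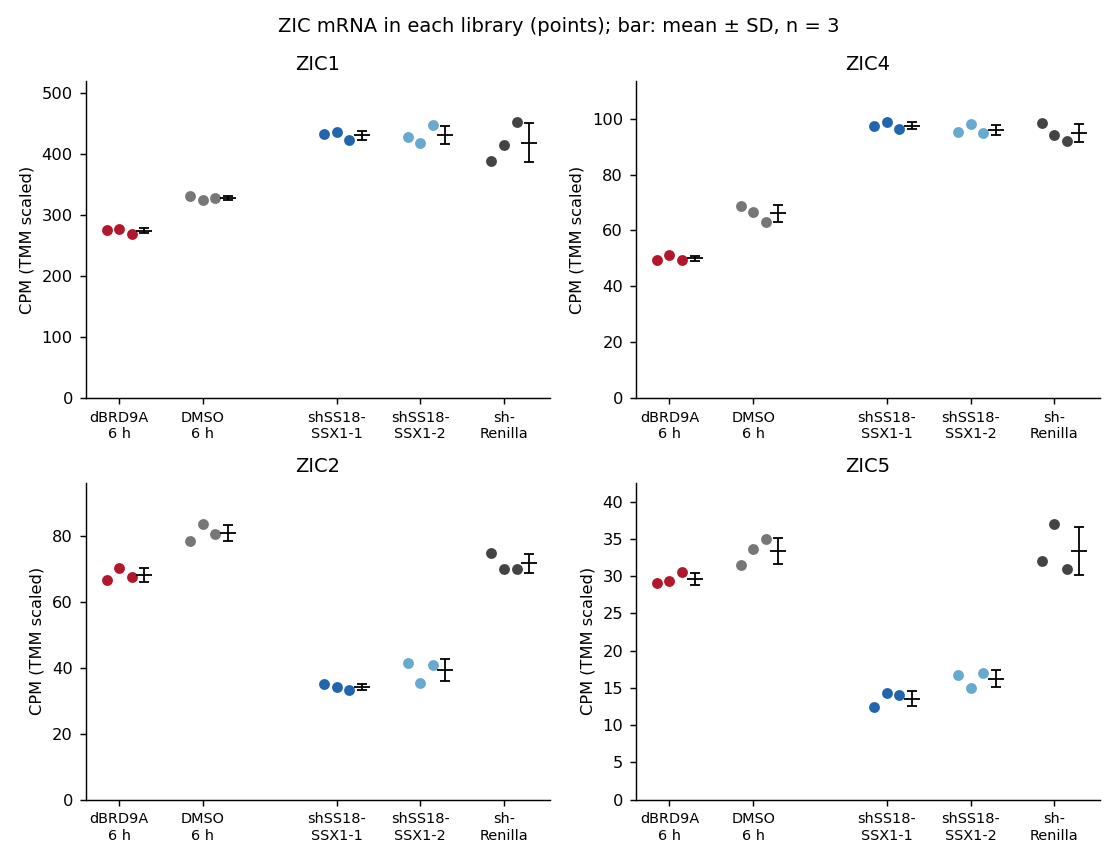
CPM after TMM scaling (vertical axis, from 0) of ZIC1, ZIC4, ZIC2 and ZIC5 in each library, with 1 point per library and the mean ± SD of 3 libraries beside them. With dBRD9A all 4 genes sit below DMSO, while with the SS18-SSX1 hairpins ZIC2 and ZIC5 sit below shRenilla and ZIC1 and ZIC4 lie in the same range as shRenilla.

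SS18-SSX1 knockdown split the family by chromosome. ZIC2 and ZIC5 fell with both hairpins, and ZIC1 and ZIC4 did not pass the test with either. In the mean of both hairpins against shRenilla, 22.1% of 14269 tested genes were called lower and 22.5% higher, and 5.9% were called lower by more than 1.5-fold. ZIC2 and ZIC5 were both past 1.5-fold.

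ZIC2 was at 35.0, 34.0 and 33.2 CPM with shSS18-SSX1-1 and at 41.3, 35.4 and 40.9 CPM with shSS18-SSX1-2, against 74.8, 70.0 and 70.0 CPM with shRenilla. No hairpin library came near the lowest shRenilla library. The mean of both hairpins gave a log2 fold change of -0.99 (standard error 0.0699, 95% interval -1.14 to -0.84, edgeR adjusted p = 6.77e-08), and 1.96% of tested genes had a lower one. Without shRenilla replicate 1 it was -0.94 (adjusted p = 2.35e-07).

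ZIC5 was at 12.4, 14.3 and 14.1 CPM with shSS18-SSX1-1 and at 16.7, 15.005 and 17.0 CPM with shSS18-SSX1-2, against 32.1, 36.996 and 30.9 CPM with shRenilla. All 6 hairpin libraries were far below the 3 shRenilla libraries. The log2 fold change was -1.18 (standard error 0.0844, 95% interval -1.363 to -0.9999, edgeR adjusted p = 7.85e-08), and 1.35% of tested genes had a lower one. Without shRenilla replicate 1 it was -1.19 (adjusted p = 2.49e-07).

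Each hairpin alone gave the same calls, and both comparisons share the shRenilla libraries. With shSS18-SSX1-1, where 19.5% of genes were called lower, ZIC2 fell by 1.08 and ZIC5 by 1.30 on the log2 scale (edgeR adjusted p = 2.29e-07 and 2.66e-07). With shSS18-SSX1-2, where 15.9% were called lower, ZIC2 fell by 0.90 and ZIC5 by 1.06 (adjusted p = 1.41e-06 and 1.79e-06). In the direct comparison of shSS18-SSX1-2 with shSS18-SSX1-1, ZIC2 differed by 0.18 (95% interval -0.0017 to 0.36, edgeR adjusted p = 0.624) and ZIC5 by 0.24 (95% interval 0.0089 to 0.46, adjusted p = 0.583). Neither passed, nor did ZIC1 at -0.02 (-0.17 to 0.13) or ZIC4 at -0.04 (-0.19 to 0.11), and 0.147% of all genes did. For ZIC2 and ZIC5 every shSS18-SSX1-2 library was still above every shSS18-SSX1-1 library, while for ZIC1 and ZIC4 the hairpins overlapped.

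ZIC1 was at 434, 437 and 424 CPM with shSS18-SSX1-1 and at 429, 419 and 448 CPM with shSS18-SSX1-2, against 390, 415 and 453 CPM with shRenilla. The hairpin libraries lay inside the shRenilla range. The log2 fold change of the mean of both hairpins was 0.03 (standard error 0.0622, 95% interval -0.11 to 0.16, edgeR adjusted p = 0.746). Without shRenilla replicate 1 it was -0.0034 (adjusted p = 0.967).

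ZIC4 was at 97.6, 98.7 and 96.3 CPM with shSS18-SSX1-1 and at 95.2, 98.2 and 94.96 CPM with shSS18-SSX1-2, against 98.4, 94.4 and 92.1 CPM with shRenilla. The groups overlapped. The log2 fold change was 0.01 (standard error 0.0593, 95% interval -0.11 to 0.14, edgeR adjusted p = 0.882), and 0.06 without shRenilla replicate 1 (adjusted p = 0.4). For both chromosome 3 genes the interval leaves out a change of the size seen for ZIC2 or ZIC5, though a small change in either direction lies within it.

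**Figure D2:**
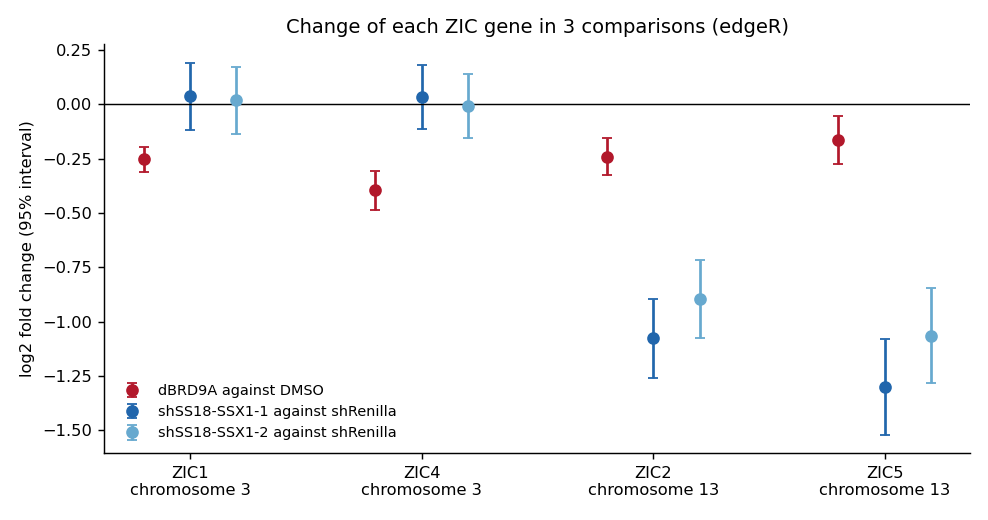
Log2 fold change (vertical axis) of each ZIC gene with its 95% interval from edgeR, for dBRD9A against DMSO and for each SS18-SSX1 hairpin against shRenilla. All intervals for dBRD9A lie below 0, and for the hairpins only those of ZIC2 and ZIC5, between -1.52 and -0.72, lie below 0.

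The effects of dBRD9A and of SS18-SSX1 knockdown on the same gene differed for all 4 genes in a fit of all 15 libraries, in which 36.6% of 14560 genes were called for this difference, 17.5% higher and 19% lower. For ZIC1 the dBRD9A effect minus the knockdown effect was -0.30 (95% interval -0.46 to -0.15, edgeR adjusted p = 0.00336) and for ZIC4 it was -0.43 (-0.58 to -0.28, adjusted p = 0.000135). For ZIC2 it was 0.73 (0.55 to 0.90, adjusted p = 2.68e-06) and for ZIC5 0.99 (0.77 to 1.22, adjusted p = 9.64e-07). The log2 fold changes of the chromosome 3 genes were thus lower with dBRD9A, and those of the chromosome 13 genes were lower with the hairpins. Without shRenilla replicate 1 the differences were -0.25, -0.46, 0.69 and 1.02 in the order ZIC1, ZIC4, ZIC2 and ZIC5. The experiments also differ in time, delivery and control, which cannot be told apart from the agent.

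The controls of the experiments differed for the chromosome 3 pair. ZIC1 was higher with shRenilla at 96 h than with DMSO at 6 h by 0.35 on the log2 scale (standard error 0.0555, edgeR adjusted p = 3.21e-05) and ZIC4 by 0.52 (standard error 0.0545, adjusted p = 2e-07), and in both genes every shRenilla library was above every DMSO library. In this comparison 27.9% of genes were called higher and 26.6% lower. ZIC2 was lower by 0.17 (adjusted p = 0.0287), a call that was lost in several alternatives, and ZIC5 was at -0.0031 (95% interval -0.17 to 0.16, adjusted p = 0.98). Every shRenilla library was below every DMSO library for ZIC2, and the groups overlapped for ZIC5. Without shRenilla replicate 1 the values were 0.40 for ZIC1, 0.50 for ZIC4, -0.21 for ZIC2 and 0.03 for ZIC5. The summed level of 5 neural markers (SOX2, MAP2, NES, TUBB3 and SYP) was 133 to 220 CPM with shRenilla and 99.3 to 106 CPM with DMSO, and SOX2 was at 0 in every library of both groups. All 4 neural markers that were tested were higher with shRenilla, and their part in the ZIC values was not tested.

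Per kilobase of the MANE transcript, ZIC1 was the most abundant member in every group. In CPM per kilobase it was at 52.2 ± 0.806 with dBRD9A and 62.5 ± 0.612 with DMSO, and at 82.0 ± 1.33 with shSS18-SSX1-1, 82.1 ± 2.87 with shSS18-SSX1-2 and 79.7 ± 6.01 with shRenilla (SD, n = 3 each). At 6 h the order was ZIC1, ZIC2, ZIC4 and ZIC5 in both groups, and neighbours in it were further apart than their SDs. ZIC2 was at 23.0 ± 0.673 and ZIC4 at 12.5 ± 0.230 with dBRD9A, against 27.3 ± 0.856 and 16.5 ± 0.728 with DMSO. In the hairpin groups ZIC4 stood above ZIC2, at 24.3 ± 0.305 against 11.5 ± 0.304 with shSS18-SSX1-1 and at 24.0 ± 0.451 against 13.2 ± 1.12 with shSS18-SSX1-2. With shRenilla ZIC2 at 24.2 ± 0.944 and ZIC4 at 23.7 ± 0.800 did not differ beyond their spread. ZIC5 was the least abundant in all groups, at 3.02 ± 0.227 with shSS18-SSX1-1, 3.62 ± 0.244 with shSS18-SSX1-2 and 7.41 ± 0.718 with shRenilla.

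A ratio of counts of 2 genes in the same library does not depend on how libraries are scaled, so partners were compared that way. ZIC4 counts per 100 ZIC1 counts were 17.9 to 18.4 with dBRD9A and 19.1 to 20.7 with DMSO, a difference of the mean log2 ratio of -0.14. The groups did not overlap, and the exact two-sided permutation test gave p = 0.1, the smallest that 3 against 3 libraries allow (adjusted p = 0.2 over 4 comparisons). The ratio was 21.2 to 23.5 over both hairpins and 20.3 to 25.2 with shRenilla (difference -0.02, exact permutation p = 0.786). With a library left out in turn, this difference ranged from -0.09 to 0.06, so its sign was not stable. ZIC5 counts per 100 ZIC2 counts were 41.7 to 45.2 with dBRD9A and 40.2 to 43.5 with DMSO, a difference of 0.07 (exact permutation p = 0.2, adjusted p = 0.267). Over both hairpins they were 35.5 to 42.4 and with shRenilla 42.9 to 52.9, a difference of -0.19 (exact permutation p = 0.0238, the smallest that 6 against 3 allow, adjusted p = 0.0952). None of the 4 comparisons of partners passed after adjustment. Those of 3 against 3 libraries could not pass, since their smallest p is 0.1. A single comparison of 6 against 3 at its smallest p could not pass alone either. No conclusion is drawn from the lack of a call.

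Across the pairs, ratios chosen after the values were seen are given with no test. ZIC2 counts per 100 ZIC1 counts were 24.0 to 25.3 with dBRD9A and 23.6 to 25.6 with DMSO. They were 7.79 to 8.06 with shSS18-SSX1-1 and 8.46 to 9.64 with shSS18-SSX1-2, against 15.5 to 19.2 with shRenilla. This ratio overlapped between the 6 h groups and did not overlap between either hairpin and shRenilla. ZIC5 counts per 100 ZIC4 counts were 57.4 to 61.7 with dBRD9A and 46.0 to 55.6 with DMSO, and 12.7 to 14.6 with shSS18-SSX1-1 and 15.3 to 17.9 with shSS18-SSX1-2 against 32.6 to 39.2 with shRenilla. This second ratio overlapped neither between the 6 h groups nor between either hairpin and shRenilla, and it was higher with dBRD9A than with DMSO and lower with the hairpins than with shRenilla.

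**Figure D3:**
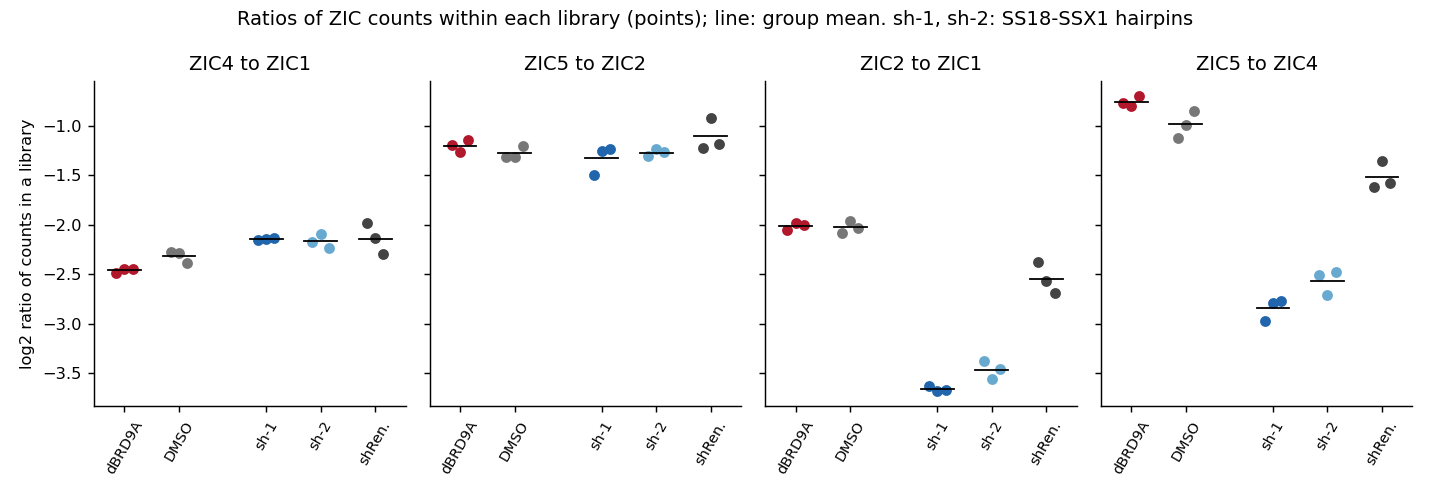
Log2 ratio of the counts of 2 ZIC genes in the same library (vertical axis), for each of 15 libraries (points) with the group mean (line). Over all libraries ZIC4 to ZIC1 lies between -2.48 and -1.99 and ZIC5 to ZIC2 between -1.49 and -0.92, with its lowest library in the shSS18-SSX1-1 group, and both ratios across the pairs (right panels) are lowest in the hairpin groups.

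The pattern of each ZIC gene over all 15 libraries was set beside those of 11065 genes whose mean level reached 5 CPM, by the root mean square difference of centred log2 CPM, in which 0 is an identical pattern. These values are descriptions over libraries that share groups. The nearest gene to ZIC5 was ZIC2 (0.115), before the long noncoding RNA HOTAIR (0.122) and the adhesion molecule CADM1 (0.127). ZIC5 ranked 7 for ZIC2, behind PIWIL1 (0.0979), a germline protein that binds piRNAs, DSCC1 (0.0986), a factor of sister chromatid cohesion, and ALDH1A3 (0.103), an enzyme of retinoic acid synthesis. ZIC1 and ZIC4 were 0.141 apart, which put ZIC4 at rank 329 for ZIC1 and ZIC1 at rank 79 for ZIC4. The genes nearest to ZIC1 were LDLRAD3 (0.0534), CRY1 (0.0652), a repressor in the circadian clock, and FMNL3 (0.0701), a formin, and those nearest to ZIC4 were GALK2 (0.065), ANO10 (0.0792) and ARHGEF25 (0.0848). Members of different pairs were 0.703 to 0.84 apart.

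Other genes within 1000000 bases of the pairs were examined. On chromosome 13, 21 other genes had a row and 10 were tested. With dBRD9A 4 of the 10 were lower and none higher, against 18.2% called lower over all genes. PCCA, a subunit of propionyl-CoA carboxylase that begins 107231 bases from ZIC2, fell by 0.51 on the log2 scale (edgeR adjusted p = 2.25e-07), UBAC2 by 0.26, TMTC4 by 0.20 and TM9SF2 by 0.09. With the hairpins 2 of the 10 fell and none rose, TMTC4 by 0.31 and PCCA by 0.30, against 22.1% called lower over all genes, which is near the share of these neighbours. On chromosome 3, 3 other genes had a row and 1 was tested. PLSCR1, a phospholipid scramblase 864509 bases from ZIC1, was at -0.14 with dBRD9A (edgeR adjusted p = 0.0926) and rose by 0.57 with the hairpins (adjusted p = 3.63e-05).

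Transcription factors of the neural plate border and neural crest, the setting in which ZIC genes are best known, moved in both directions with SS18-SSX1 knockdown. Of 20 listed genes 15 were tested, and 8 fell and 5 rose, with a median of -0.49 beside -0.01 for all genes, of which 22.1% were called lower and 22.5% higher. The largest falls were those of PAX7 (-1.50), SOX8 (-1.48), GBX2 (-1.46) and PAX3 (-1.24), factors of the border and early crest. PAX3 was at 32.8 to 37.7 CPM with shSS18-SSX1-1 and 39.4 to 45.5 CPM with shSS18-SSX1-2, against 89.0 to 92.2 CPM with shRenilla, and no library overlapped. The largest rises were those of ETS1 (4.24), SNAI1 (3.31), DLX3 (3.20) and SOX9 (1.01), of which SNAI1 encodes a repressor of epithelial genes. All of these rises were at low levels, with ETS1 at most 6.73, DLX3 4.38, SNAI1 8.70 and SOX9 9.44 CPM in any library. SNAI1 was at 0.566 to 0.967 CPM with shRenilla. The falls and rises are relative to shRenilla, which differed from DMSO. In shRenilla against DMSO, 9 of the 15 tested factors were called higher and 3 lower, beside 27.9% and 26.6% of all genes. PAX3 was higher by 2.49 on the log2 scale (edgeR adjusted p = 2.75e-15), and SNAI1 was lower by 2.18 (adjusted p = 2.98e-08). With DMSO PAX3 was at 15.7 to 16.5 CPM, below all hairpin libraries.

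With dBRD9A 12 of the 20 border and crest factors were tested, and 7 rose and 1 fell, with a median of 0.12 beside 0.01 for all genes, of which 17.7% were called higher and 18.2% lower. DLX3 rose by 2.05 at levels near the limit of detection (0.719 to 1.00 CPM with dBRD9A, against 0.0898 to 0.342 CPM with DMSO), SNAI1 and MSX2 each by 0.59 and GBX2 by 0.16. PAX7 fell by 0.09 (edgeR adjusted p = 0.0331), and PAX3 was at 0.10 (adjusted p = 0.249).

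**Figure D4:**
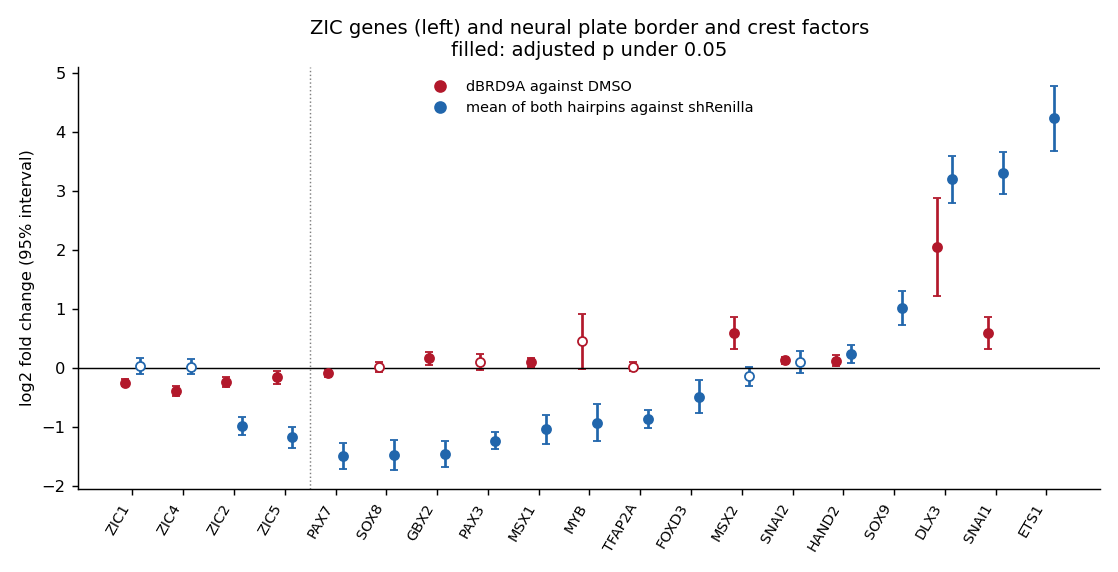
Log2 fold change (vertical axis) with 95% interval from edgeR of the 4 ZIC genes and of 15 neural plate border and crest factors, for dBRD9A against DMSO and for the mean of both SS18-SSX1 hairpins against shRenilla. Filled points passed an adjusted p under 0.05. With the hairpins 8 of the 15 factors are called lower, as ZIC2 and ZIC5 are, and 5 are called higher.

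The GLI and GLIS genes, which encode the zinc finger factors closest to the ZIC proteins, had log2 fold changes between -0.16 and 0.24 with dBRD9A. Of 6 listed genes 5 were tested, GLIS1 rose by 0.24, and GLIS2 fell by 0.16 and GLI1, a target and effector of Hedgehog signalling, by 0.14, where 17.7% of all genes were called higher and 18.2% lower. With the hairpins all 6 were tested, GLIS3 rose by 1.38 and GLIS2 by 0.28, and none fell. Of all genes 22.5% were called higher and 22.1% lower. GLIS3 was near the limit of detection, at 0.135 to 0.435 CPM with shRenilla and at most 0.997 CPM with either hairpin. GLI2 and GLI3, the main transducers of Hedgehog signalling, did not pass in either comparison.

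Of 10 genes for which regulation by a ZIC protein is known from mouse, frog or chick, 4 were tested with dBRD9A, and SNAI2 rose by 0.12 and GLI1 fell by 0.14, beside 17.7% of all genes called higher and 18.2% lower. With the hairpins 5 were tested, PAX3 fell by 1.24 and FOXD3, a factor of crest precursors, by 0.49, and APOE, a lipid carrier, rose by 1.70, beside 22.1% of all genes called lower and 22.5% higher. With 4 or 5 genes tested, these counts are not read as set apart from all genes. The other 2 that were tested, GLI1 at -0.17 and SNAI2 at 0.10, did not pass. PAX3, FOXD3 and SNAI2 are also on the border and crest list, and GLI1 is also among the GLI and GLIS genes.

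Markers of some other cells moved in the groups in which ZIC2 and ZIC5 fell. The summed level of 7 fibroblast and myofibroblast genes (COL1A1, COL1A2, COL3A1, LUM, DCN, ACTA2 and TAGLN) was 1131 to 1147 CPM with shSS18-SSX1-1 and 1276 to 1433 CPM with shSS18-SSX1-2, against 22.3 to 28.4 CPM with shRenilla, where LUM and DCN were at 0. The 4 of them that were tested, COL1A1, COL3A1, ACTA2 and TAGLN, rose. COL1A2, LUM and DCN stayed near 0 in the hairpin groups too, at most 0.394 CPM in any library. The summed level of 5 skeletal muscle genes was 15.8 to 19.7 and 16.2 to 22.1 CPM, against 2.90 to 3.44 CPM. MYOG, a defining marker, was at 0 in all of these libraries. Endothelial genes summed to at most 0.317 CPM and leukocyte genes to at most 6.66 CPM in any of these libraries. The 5 neural genes summed to 180.4 to 189.9 CPM with shSS18-SSX1-1 and 171.5 to 197.2 CPM with shSS18-SSX1-2. Both ranges lay inside the 132.6 to 220.2 CPM of shRenilla. Of the 4 neural genes tested in the mean of both hairpins, SYP fell and 3 were not called. With dBRD9A the fibroblast sum was 19.4 to 21.7 CPM, against 17.6 to 18.9 CPM with DMSO, and the muscle sum 2.48 to 4.12 against 3.30 to 3.73 CPM. The part of these markers in the ZIC values was not tested.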

How the data were processed

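Per the submitters' processing notes, the authors used STAR, hg19 (GRCh37) and featureCounts, and the deposited values are raw counts of reads for each transcript. Tool versions and the strand setting were not given in the sources used here. Each table holds 48104 rows. In the table of dBRD9A replicate 2 the symbol was broken in 4535 rows, and the count was taken from the end of the field. The study's methods name spike-in RNA, the tables hold 0 spike-in rows, and TMM scaling does not reveal a change common to all genes.

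The robust quasi-likelihood test of edgeR 4.0.16 (R 4.3.3) was run on genes kept by filterByExpr (minimum count 10), with Benjamini-Hochberg adjustment over all genes. The fits held the 6 libraries of 6 h, the 9 libraries of 96 h, or all 15 libraries. A call is an adjusted p under 0.05 at any fold. Standard errors are the log2 fold change over the square root of F. Ratios were tested with scipy (exact permutation). Likeness used log2 CPM with a prior count of 2. Scripts were tested on simulated data.

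The genes and lists were chosen with earlier results of these data known. Named are all 4 ZIC genes, at most 4 called members a list and comparison with the largest change, and the 3 most alike genes of each. Values of list members outside this rule are given where a count of 5 or fewer is spelled out, or where the controls are compared. These were chosen after their values were seen. As alternatives, limma 3.58.1 (voom), DESeq2 1.42.0, further scalings and filters, summed rows, a replicate block, 1 fit of all libraries and the removal of each library were tried. Positions are from GENCODE mapped to GRCh37. Some genes are left out of this account.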

Additional observations from a re-analysis of the deposited data

Results flagged for a closer look

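For each ZIC gene the effect of dBRD9A differed from the effect of SS18-SSX1 knockdown by a direct test of that difference (edgeR, 14560 genes). The dBRD9A effect minus the knockdown effect was -0.30 for ZIC1 and -0.43 for ZIC4 on the log2 scale, the more negative effect being that of dBRD9A. It was 0.73 for ZIC2 and 0.99 for ZIC5, where the more negative effect was that of the hairpins. For this difference 36.6% of all genes were called. Over the libraries left out in turn, ZIC1 stayed between -0.37 and -0.25, ZIC4 between -0.47 and -0.40, ZIC2 between 0.69 and 0.75 and ZIC5 between 0.91 and 1.04, all with an adjusted p of at most 0.013. Groups of 3 libraries were not examined for single outlying values.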

How the results depend on the processing

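No result changed direction past the threshold under any alternative. With a library left out, 372 values kept their side of the threshold or stayed near the reported count, 10 no longer passed (3 of them the ZIC5 to ZIC2 ratio, by its unadjusted p) and 8 counts moved by over 1.5 times, and under the other settings 339 did, 3 lost their call and 10 counts moved. The falls of ZIC1, ZIC4 and ZIC2 with dBRD9A and of ZIC2 and ZIC5 with the hairpins passed in all of these alternatives. ZIC5 with dBRD9A ranged from -0.208 to -0.144 with a library left out and lost its call in 3 of these 6 fits and in the fit of all 15 libraries (-0.173, adjusted p = 0.199); its common coefficient of variation was 7.08%, against 2.78% in the 6 h fit. It called 1500 genes for dBRD9A, against 4906. ZIC2 in shRenilla against DMSO was -0.122 (adjusted p = 0.115) with upper quartile scaling and ranged from -0.207 to -0.149 with a library left out, its call being lost without DMSO replicate 2 or 3 or shRenilla replicate 2 or 3. The difference of the ZIC5 to ZIC2 ratio between hairpins and shRenilla ranged from -0.249 to -0.0978, and 6 against 2 libraries cannot go below p = 0.0714 in the exact permutation test. The count for shSS18-SSX1-2 against shSS18-SSX1-1, 21 by edgeR (1142 at an unadjusted p under 0.05), was 162 with DESeq2, 32 with DESeq2 size factors and with total counts, 123 with no filter, 8 at a mean of at least 5 CPM, 12 with summed rows and 246 with all libraries, and 5 to 112 with a library left out (112 without shRenilla replicate 1). The cause was not tested.

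The replicate numbers did not consistently pair the libraries. Correlations of deviations between equal numbers were -0.0931 to 0.00115 for dBRD9A and DMSO and -0.558 to -0.392 for shSS18-SSX1-1 and shRenilla. They were -0.082 to 0.458 for shSS18-SSX1-2 and shRenilla, and -0.606 to 0.28 between the hairpins. Equal numbers correlated best in 0, 0, 2 and 1 of 3 libraries, in this order. Unequal numbers reached 0.681, for shSS18-SSX1-2 replicate 2 with shSS18-SSX1-1 replicate 3. A pairing of the 96 h libraries under other numbers was not tested. With a replicate block ZIC2 in shRenilla against DMSO was -0.075 (adjusted p = 0.581), the count of that comparison was 5270 against 7941, and that of shSS18-SSX1-2 against shSS18-SSX1-1 was 13. The block changed no other call of a ZIC gene. Depth limits ZIC5 most, at 264 to 850 counts a library.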
